A study of Bos taurus with 2 samples.

Results

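The genes described here belong to the nerve supply and the sensory cells of the bovine muzzle: myelin and Schwann cell genes, genes of immature glia, axon proteins, vesicle and Merkel cell genes, neurotrophic factors with their receptors, axon guidance genes, sensory channels and neuropeptides. They were chosen by name from a list of 55 gene symbols. Probes on the array carry accessions, and the RefSeq table of the assembly ARS-UCD2.0 paired 66 probes with 32 of these genes, out of 9647 genes that it named on the array. The other 23 were not analysed here, among them all 4 sensory channels (PIEZO1, PIEZO2, TRPV1 and TRPM8) and all 5 guidance genes. RNA came from nose tissue of 2 female Hanwoo (native Korean cattle), both 30 months old, of which 1 had a yellow nose (the light-muzzled cow) and 1 a black nose (the dark-muzzled cow). Both were raised on the same farm, the front of the muzzle was frozen after removal, and each cow was taken by the study as representative of its muzzle colour. Each RNA was labelled with Cy3 and read on 1 Agilent bovine array.

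With 1 array per muzzle colour there was no replicate, so each difference below is a difference between 2 animals, no test was made, and precision is limited by the number of arrays. Animal and muzzle colour cannot be told apart. A level is the log2 of the processed signal minus the 75th percentile of the same array, so that 0 means a signal of 1144 in the light-muzzled cow and 1137 in the dark-muzzled cow. Log2 ratios are dark-muzzled over light-muzzled throughout. The error after ± is the technical error that the scanner software assigns to the 2 signals of a probe, and it holds no variation between cows. A probe was taken as measured where the software marked its spot as well above background, which was so for 78.8% of spots in the light-muzzled cow and 81.9% in the dark-muzzled cow. Where only 1 array measured a probe, the ratio is called a lower bound. It sets the measured level against the lowest level marked well above background on the other array, the detection limit (-5.78 light-muzzled, -5.81 dark-muzzled). Where the unmeasured level lay above that limit, as for PMP2 and the brighter CHGA probe, the bound is the plain difference and no minimum. The limit is not strict, since some spots above it were not marked. Across 5363 genes with at least 2 measured probes, the SD of the ratio between probes had a median of 0.17.

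The muzzle is a hairless, glandular skin that is densely innervated. Schwann cells wrap its axons, and they either build compact myelin or ensheath thin fibres without it. Merkel cells are epidermal cells that touch sensory nerve endings, respond to light pressure and carry vesicles much as neurons do. Neurotrophins and the ligands of the GDNF family keep sensory and autonomic neurons alive through receptors on their axons. The cell bodies of sensory neurons lie in ganglia outside the tissue, so many transcripts of neurons stay there.

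A part of the list was not seen in either cow. Of the 66 probes, 41 were measured in both cows and 18 (27.3%) in neither. A further 5 (7.58%) were measured in the dark-muzzled cow only and 2 (3.03%) in the light-muzzled cow only. Over all probes with a gene symbol, 9.47% were measured in neither cow, 3.78% in the dark-muzzled cow only and 1.56% in the light-muzzled cow only. The genes without a measured probe were NEFL (the light neurofilament subunit), CHGB (a granin of secretory granules), CALCA (precursor of calcitonin gene-related peptide), TAC1 (precursor of substance P) and VIP (a vasodilator peptide). Their 9 probes lay between -8.04 and -5.48, and no ratio was taken for them.

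**Figure D1:**
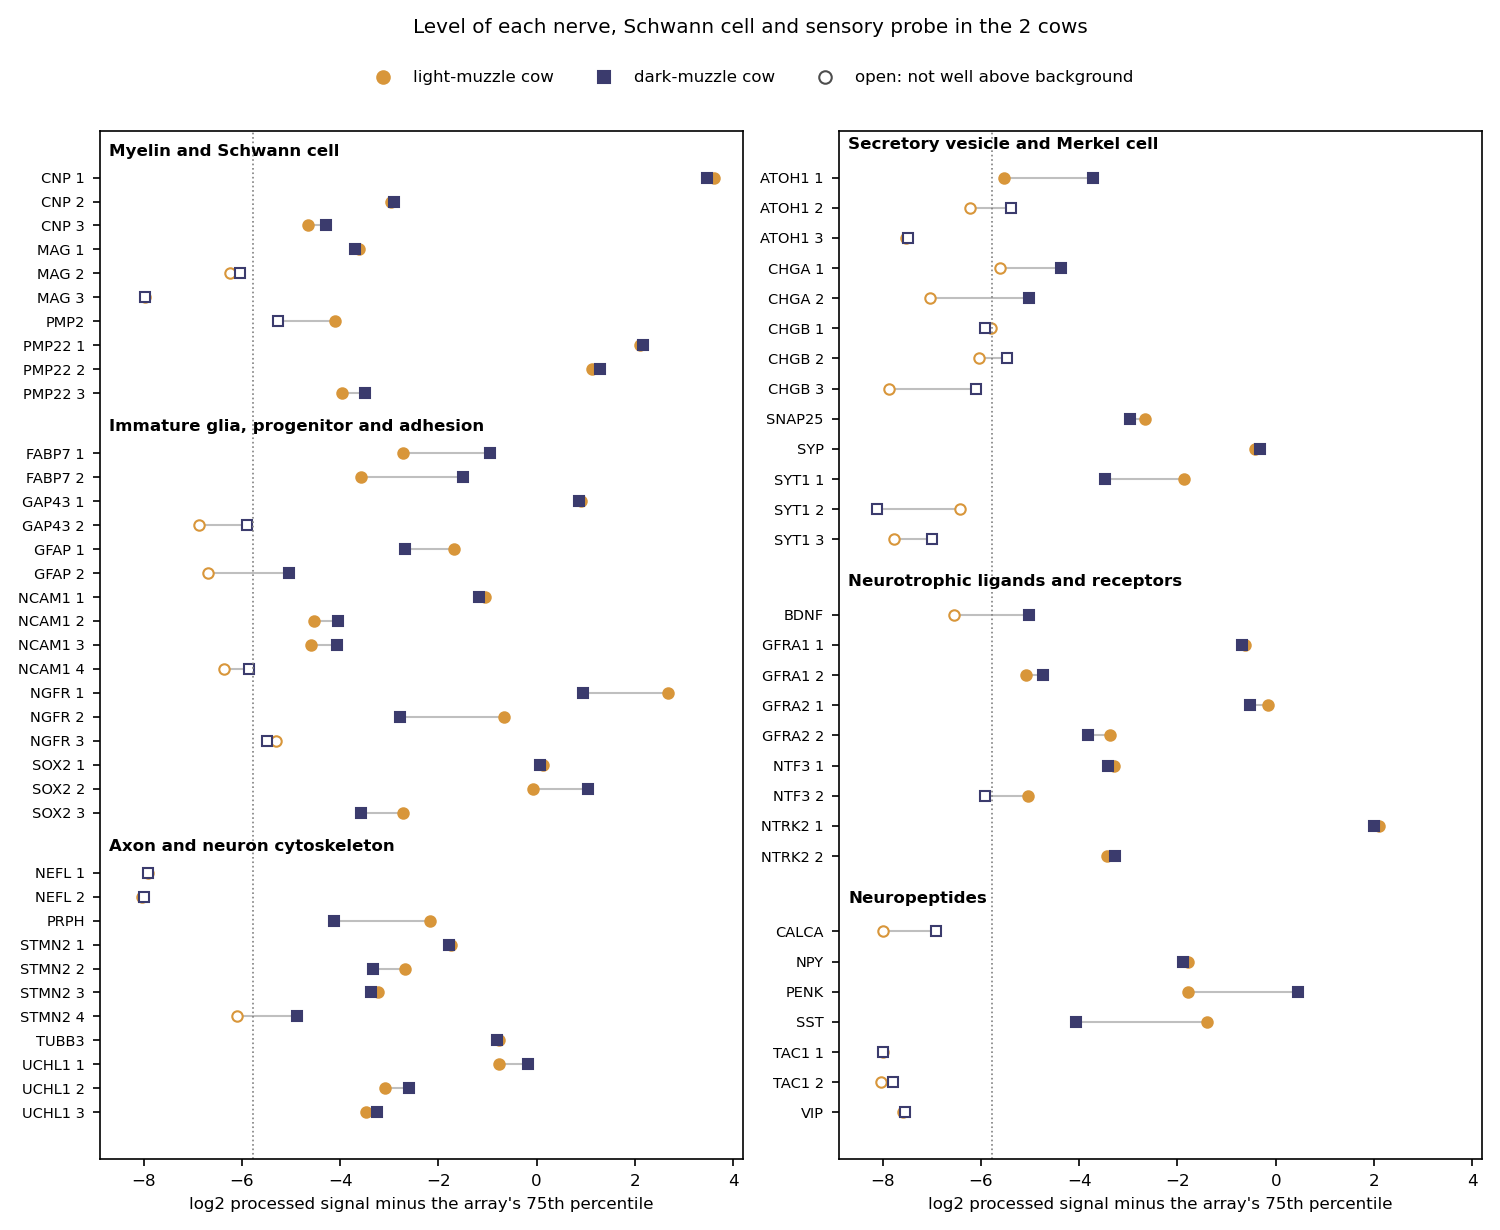
Level of each probe (log2 signal relative to the 75th percentile of its array) in the light-muzzled cow (orange circles) and the dark-muzzled cow (blue squares), 1 array each, by role group; open symbols were not well above background, numbers after a symbol count its probes, and the dotted line is the lowest level well above background in the light-muzzled cow (-5.78). The symbols overlap or nearly so at the brightest probe of PMP22 and of GAP43 and at TUBB3 and NPY. They are far apart at the measured probes of NGFR and FABP7 and at PRPH, PENK and SST.

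A ratio or bound was obtained for 27 genes. Of these, 4 were at least 2-fold higher in the dark-muzzled cow (PENK, FABP7, ATOH1 and CHGA) and 6 at least 2-fold lower (SST, PRPH, NGFR, SYT1, PMP2 and GFAP). Over all 8914 genes with a ratio, 9.86% were at least 2-fold higher and 6.47% lower, or 16.3% in either direction, against 37.0% of the nerve and sensory genes. CHGA and PMP2 were measured in 1 cow only and passed by the difference from a level not well above background. Among genes measured in both cows the share was 8 of 24 (33.3%) against 15.2% of all genes. The list was chosen with earlier results of these data known, so these shares are no independent comparison. The median log2 ratio of the 27 genes was -0.03, beside 0.07 over all genes, and the differences above 2-fold lay on both sides. By role, the median was 0.002 for 4 myelin genes, 0.02 for 6 genes of immature glia and adhesion, -0.15 for 4 axon genes, 0.11 for 5 vesicle and Merkel cell genes, 0.03 for 5 neurotrophic genes and -0.11 for 3 neuropeptides.

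**Figure D2:**
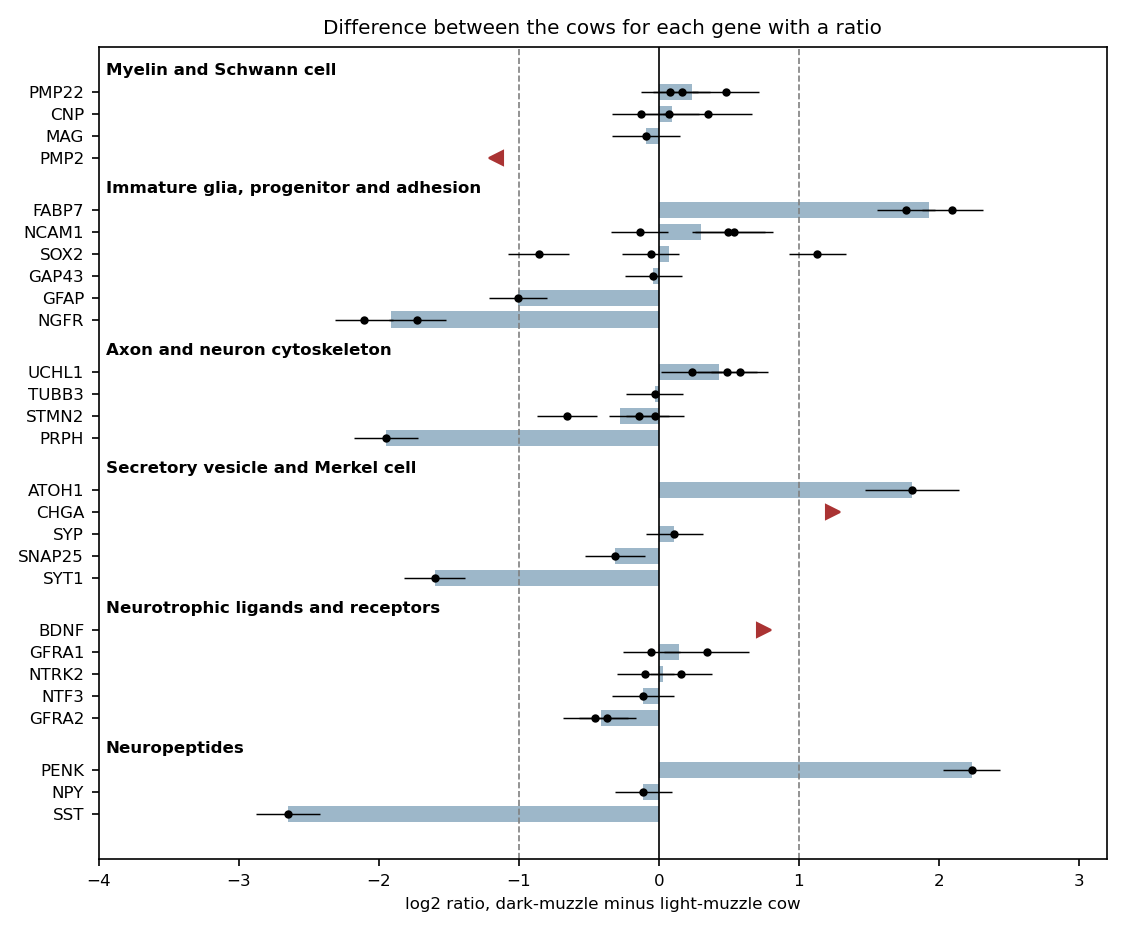
Log2 ratio (dark-muzzled minus light-muzzled cow) of the 27 genes with a ratio, by role group. Bars are means over probes measured in both cows, points are single probes with their technical error, arrowheads are lower bounds and dashed lines mark 2-fold; PENK (2.23) and SST (-2.65) are the extremes.

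Myelin genes were close to level between the cows, except for PMP2. PMP22, a membrane protein of compact myelin, had probes at 2.10, 1.13 and -3.96 in the light-muzzled cow and at 2.17, 1.29 and -3.49 in the dark-muzzled cow. The mean log2 ratio was 0.24 (SD between probes 0.21), about the size of the technical error of a single probe (0.20 to 0.24). CNP, the cyclic nucleotide phosphodiesterase of myelin, was read by probes at 3.60, -2.97 and -4.65 in the light-muzzled cow against 3.47, -2.90 and -4.30 in the dark-muzzled cow, and its ratios of -0.13, 0.07 and 0.35 averaged 0.10. The probes of CNP thus went both ways, and all 3 of PMP22 were slightly higher in the dark-muzzled cow. MAG, a glial adhesion protein that faces the axon, was measured by 1 of its 3 probes, with levels of -3.61 and -3.71 and a ratio of -0.09 ± 0.24. PMP2, the fatty acid-binding protein of peripheral myelin, had a level of -4.10 in the light-muzzled cow and was not well above background in the dark-muzzled cow (-5.27). The difference of these levels was 2.24-fold (log2 ratio -1.17 ± 0.38), lower in the dark-muzzled cow, and is no minimum. It shrank to -0.37 on the log2 scale under another background correction (normexp).

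Among the genes of immature glia and adhesion, NGFR and FABP7 went opposite ways. NGFR, a receptor that binds all neurotrophins and marks immature and non-myelinating Schwann cells, had levels of 2.67 and -0.67 at its 2 measured probes in the light-muzzled cow and 0.95 and -2.78 in the dark-muzzled cow. Both probes were lower in the dark-muzzled cow, with log2 ratios of -1.73 ± 0.20 and -2.11 ± 0.21 and a mean of -1.92 (3.77-fold lower), and only 2.05% of all genes had a lower ratio. The remaining NGFR probe was not measured in either cow, and averaging it in without a filter gave -1.33. FABP7, the brain-type fatty acid-binding protein of immature glia, rested on 2 probes with levels of -2.72 and -3.59 in the light-muzzled cow and -0.95 and -1.49 in the dark-muzzled cow. Its log2 ratios were 1.77 ± 0.21 and 2.09 ± 0.22, a mean of 1.93 (3.81-fold higher), and 96.6% of all genes had a lower ratio.

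GFAP and SOX2 depended on the probe. GFAP, an intermediate filament of glia, was measured in both cows by 1 probe, at -1.68 in the light-muzzled cow and -2.68 in the dark-muzzled cow. That log2 ratio of -1.005 ± 0.21 lay at the 2-fold threshold. Its other probe was measured in the dark-muzzled cow only and was at least 1.67-fold higher there, so the probes differed in direction. Averaging both gave 0.33 without a filter on dim probes and -0.13 with a floor at the detection limit. SOX2, a transcription factor of progenitors that Schwann cells and Merkel cells also use, had 3 probes at -0.08, 0.13 and -2.71 in the light-muzzled cow and at 1.05, 0.07 and -3.57 in the dark-muzzled cow. In that order, the ratios were 1.13 ± 0.20, -0.06 ± 0.20 and -0.86 ± 0.22. Their SD of 1.001 was above the 95th percentile of all genes (0.86), and the mean of 0.07 has no direction that the probes share. NCAM1, a cell adhesion molecule of glia, axons and muscle, averaged 0.30 over its measured probes. The ratios were -0.14 at its brightest probe (levels -1.05 and -1.18) and 0.50 and 0.54 at dimmer ones. GAP43, a protein of growing axons and repair Schwann cells, had levels of 0.91 and 0.87 and a ratio of -0.04 ± 0.20 at its measured probe. The remaining probe of each gene was measured in neither cow, and averaging it in without a filter gave 0.46 for GAP43 and 0.35 for NCAM1.

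Of the axon genes, PRPH differed most. PRPH, an intermediate filament of peripheral neurons, was read by 1 probe with a level of -2.18 in the light-muzzled cow and -4.13 in the dark-muzzled cow, a log2 ratio of -1.95 ± 0.23 (3.86-fold lower), which was -1.20 under normexp. The other axon genes were under 2-fold. UCHL1, a ubiquitin hydrolase used to stain nerve fibres, was somewhat higher in the dark-muzzled cow at each of its 3 probes, with ratios of 0.23, 0.49 and 0.58 and a mean of 0.43. Its brightest probe went from -0.76 to -0.18, and 2 of the 3 ratios exceeded 2 technical errors. TUBB3, the tubulin of neurons, had levels of -0.77 and -0.80 and a ratio of -0.03 ± 0.20. STMN2, a microtubule regulator of growing axons, averaged -0.27 over ratios of -0.03, -0.14 and -0.66. The remaining STMN2 probe was measured in the dark-muzzled cow only, at least 1.86-fold higher.

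Vesicle and Merkel cell genes were divided, with ATOH1 and CHGA higher in the dark-muzzled cow and SYT1 lower. ATOH1, the transcription factor that specifies Merkel cells, had 1 measured probe, at -5.53 in the light-muzzled cow and -3.72 in the dark-muzzled cow. Its log2 ratio was 1.81 ± 0.34 (3.50-fold higher), with a light-muzzle level just above the detection limit there (-5.78, the lowest level marked well above background), and its 2 other probes were measured in neither cow. Among 3839 probes measured in both cows with a mean level between -5 and -4, as ATOH1 had, the ratio was below 1.31 for 95% of probes. ATOH1 was under 2-fold with its dim probes averaged in (0.90), with a floor at the detection limit (0.72) and with normexp (0.75). CHGA, the granin of neuroendocrine granules, was measured in the dark-muzzled cow only, at -4.37 and -5.03, where its light-muzzle levels were -5.61 and -7.04. By the first probe it was 2.36-fold higher, a plain difference (log2 1.24 ± 0.39) and no minimum, and by the second at least 1.68-fold. CHGA fell short of 2-fold under quantile normalization (log2 0.97), cyclic loess (0.999), a floor at the detection limit (0.99) and normexp (0.46).

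SYT1, the calcium sensor of vesicle release, differed in the other direction. Its measured probe had a level of -1.86 in the light-muzzled cow and -3.47 in the dark-muzzled cow, a log2 ratio of -1.60 ± 0.22 (3.04-fold lower), and its 2 other probes were measured in neither cow. The ratio was under 2-fold when those probes were averaged in without a filter (-0.84) or with a floor at the detection limit (-0.55). SNAP25, a fusion protein of synaptic vesicles, had a ratio of -0.31 ± 0.21, from -2.66 to -2.98. SYP, a membrane protein of the same vesicles, had levels of -0.42 and -0.31 and a ratio of 0.11 ± 0.20. As a group, vesicle genes had no shared direction.

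The 5 genes grouped as neurotrophic ligands and receptors had no ratio or bound of 2-fold. NGFR, also a neurotrophin receptor, was grouped with immature glia above and was 3.77-fold lower in the dark-muzzled cow. NTF3, which feeds sensory neurons including those of touch, had a ratio of -0.12 ± 0.22 at its measured probe (-3.29 and -3.41). A second NTF3 probe was measured in the light-muzzled cow only, at least 1.69-fold higher there. BDNF was measured in the dark-muzzled cow only and was at least 1.68-fold higher there, a bound that leaves a 2-fold difference possible. Its levels were -5.03 against -6.56, a log2 difference of 1.53 without a filter on dim probes. In that range, the 3282 probes with a mean level between -6 and -5 had a median difference of 0.31 in the same direction, whether or not they were measured. NTRK2, the receptor of BDNF, averaged 0.03 over ratios of -0.10 (levels 2.10 and 2.01) and 0.16 (-3.43 and -3.28). GFRA1 and GFRA2, co-receptors for GDNF and neurturin, had mean ratios of 0.14 and -0.41. The probes of GFRA1 had ratios of -0.06 ± 0.20 (levels -0.63 and -0.69) and 0.34 ± 0.30 (-5.08 and -4.73). Both probes of GFRA2 were lower in the dark-muzzled cow, with ratios of -0.37 ± 0.20 (levels -0.16 and -0.53) and -0.45 ± 0.24 (-3.38 and -3.83).

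The neuropeptides held the largest differences in both directions. SST, the precursor of somatostatin, an inhibitory peptide of neurons and endocrine cells, was at -1.41 in the light-muzzled cow and -4.06 in the dark-muzzled cow. The log2 ratio of its probe was -2.65 ± 0.23 (6.26-fold lower), or -1.75 under normexp, and only 0.83% of all genes had a lower one as reported. PENK, the precursor of the enkephalins, was at -1.79 in the light-muzzled cow and 0.44 in the dark-muzzled cow. Its ratio was 2.23 ± 0.21 (4.70-fold higher), and 97.3% of all genes had a lower one. NPY, a peptide of sympathetic nerves to blood vessels, had levels of -1.78 and -1.89 and a ratio of -0.11 ± 0.21. SST, PENK and NPY each rested on 1 probe, so no second probe could be set beside them.

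**Figure D3:**
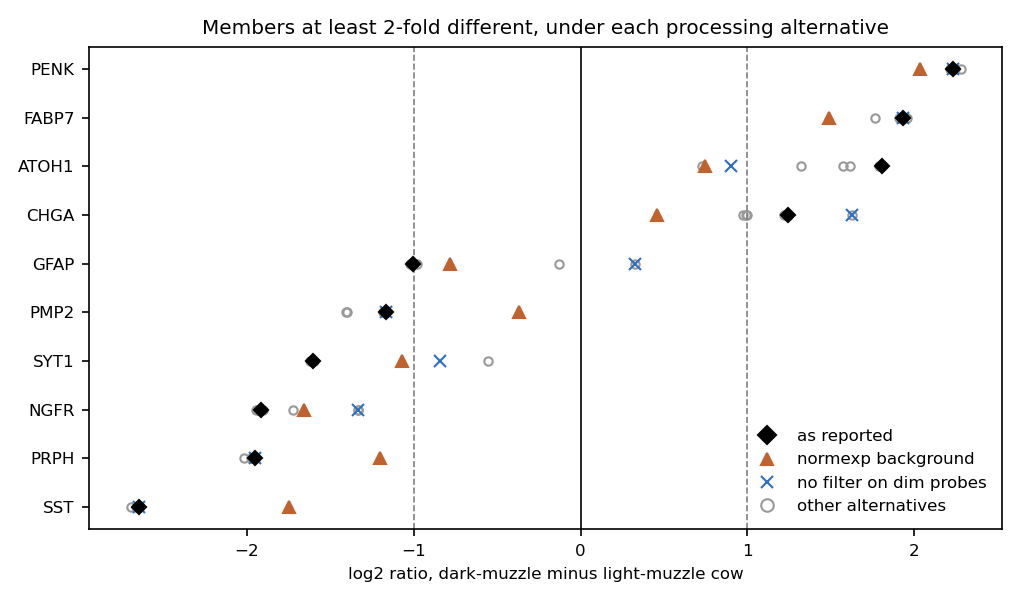
Log2 ratio (dark-muzzled minus light-muzzled cow) of the 10 genes at least 2-fold different, as reported (diamonds) and under each processing alternative. Dashed lines mark 2-fold. CHGA and PMP2 are set against an unmeasured level or the detection limit wherever only 1 array counts as measured. PENK, FABP7, NGFR, PRPH and SST stay outside 2-fold in all 13 alternatives, whereas GFAP reaches 0.33 on the other side of 0. PENK, PRPH and SST have 1 probe each, measured in both cows, so filters on dim probes and the choice of probe could not move them.

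Other genes of the same pathways were read from a list chosen by role. Of 71 such genes, 37 had a probe and 36 a ratio, of which 5 were at least 2-fold higher in the dark-muzzled cow and 3 lower (22.2% in either direction, beside 16.3% of all genes). The 10 genes of myelin and glia were all under 2-fold, with a median log2 ratio of -0.34. S100B, a calcium-binding protein of Schwann cells, had a ratio of -0.80 from 3 probes between -0.87 and -0.75, and ERBB3, the receptor through which axons signal to Schwann cells, one of -0.36.

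Receptors for neuropeptides were split, with 4 of 7 at least 2-fold higher in the dark-muzzled cow and the other 3 between -0.81 and -0.31. NPY1R, a receptor of NPY, was 2.55-fold higher in the dark-muzzled cow (levels -2.60 and -1.25), OPRM1, the opioid receptor that enkephalins also bind, was 2.45-fold higher (-4.79 and -3.50) and VIPR1 was 2.02-fold higher (-2.94 and -1.92), each from 1 measured probe. OPRK1, a further opioid receptor, was measured in the dark-muzzled cow only and was at least 2.80-fold higher. TRPV3, a warmth-sensing channel of keratinocytes, was at least 2.08-fold higher there. Of the receptors under 2-fold, RAMP1, a subunit of the receptor for calcitonin gene-related peptide, had a ratio of -0.81. CALCRL, its partner in that receptor, had one of -0.31 over 4 probes that ran from -0.86 to 0.20. SSTR2, a somatostatin receptor, had one of -0.42.

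Of 8 further vesicle genes with a ratio, 0 passed 2-fold upward in the dark-muzzled cow and 2 passed it downward, with a median log2 ratio of -0.40. SCG3, a granin-binding protein of secretory granules and 1 of these 2, was at -3.31 in the light-muzzled cow and -5.18 in the dark-muzzled cow (3.66-fold lower, 1 measured probe). Of 4 further neurotrophic genes with a ratio, 1 passed 2-fold, also downward. This was MDK, a growth factor of developing nerve and epithelium, 2.46-fold lower, with probes at -1.56 and -1.04.

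**Figure D4:**
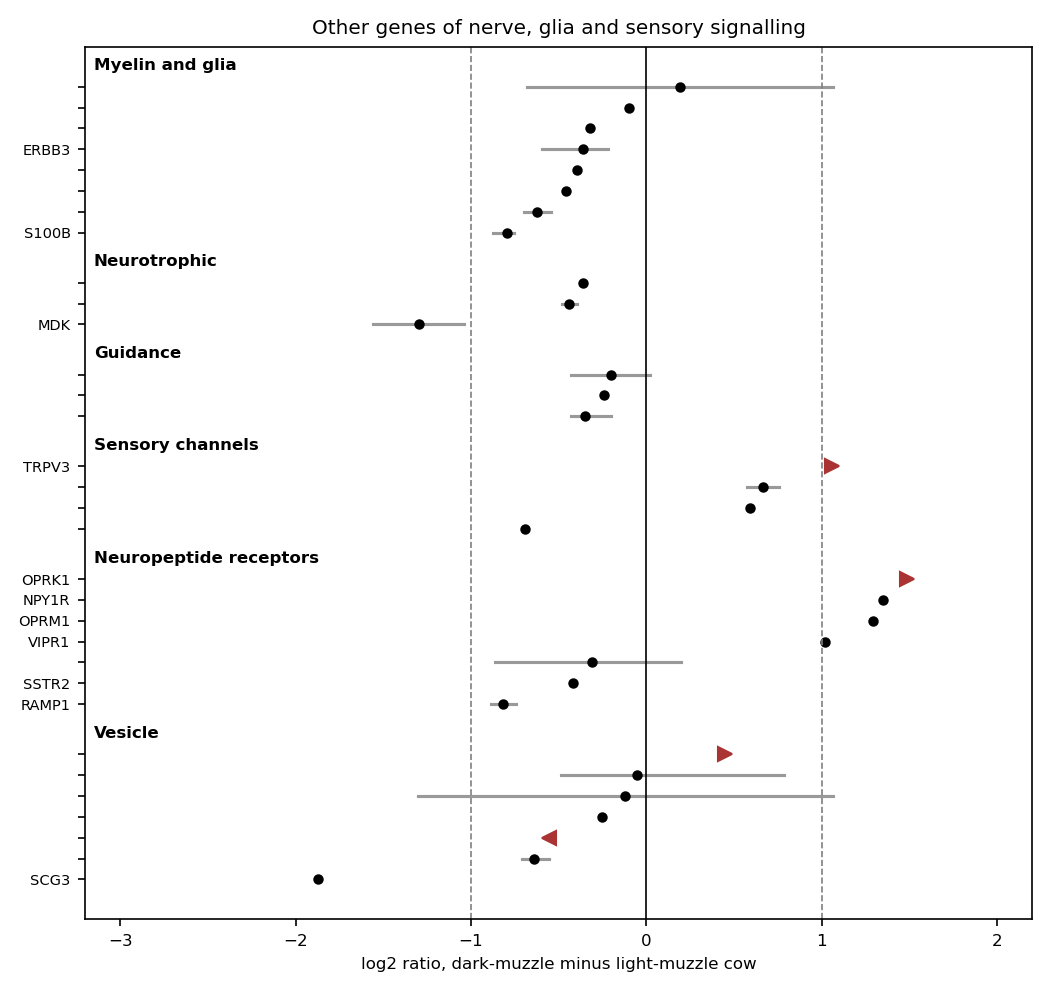
Log2 ratio (dark-muzzled minus light-muzzled cow) of 32 of the 36 further genes of nerve, glia and sensory signalling, by role. The genes described in the text are labelled, except CALCRL. Points are means over probes measured in both cows, grey lines join the lowest and highest probe, arrowheads are lower bounds and dashed lines mark 2-fold; all myelin and glia genes shown lie inside 2-fold, and 4 of 7 neuropeptide receptors lie above it.

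Markers of muscle, gland and pigment cells differed between the cows. All 8 skeletal muscle markers were at least 2-fold higher in the dark-muzzled cow (log2 ratios 2.24 to 3.50), and their summed signal was 239040 in the light-muzzled cow and 1371600 in the dark-muzzled cow. Of 5 serous gland markers, 4 were at least 2-fold lower, down to -6.18 for MSMB, and the summed signal was 313800 in the light-muzzled cow and 18363 in the dark-muzzled cow. Of 4 melanocyte markers 3 were at least 2-fold higher, with summed signals of 1810 and 4296. The 7 markers of Schwann cells and peripheral glia were all under 2-fold, between -0.80 and 0.20, with a median of -0.23. Their summed signal was 15222 in the light-muzzled cow and 10185 in the dark-muzzled cow. LPO of the gland list (0.57) and DCT of the melanocyte list (-0.52) went against the other markers of their lists. Between 2 arrays a gene can only be higher or lower, so a direction shared with muscle, melanocyte or gland markers does not place a nerve gene in those cells. The part of these cell types in the nerve genes was not tested, and in whole tissue fewer cells of a type and less RNA per cell cannot be told apart.

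Markers named for Merkel cells and neurons did not move together. KRT20, a keratin of Merkel cells, was measured in neither cow (2 probes). ISL1 had a ratio of 0.94 and INSM1 one of -0.32, beside 1.81 for ATOH1. KRT8, which gland epithelium also makes, had a ratio of -2.39 with probes from -3.25 to -0.18. ELAVL4, an RNA-binding protein of neurons, was measured in neither cow by any of 3 probes. RBFOX3, a neuronal splicing factor, was 2.10-fold higher in the dark-muzzled cow, with 3 probes between 0.89 and 1.18. The epidermal keratins KRT5, KRT14 and KRT10 had levels between 5.80 and 8.49 in both cows. Their summed signal was 507530 in the light-muzzled cow and 716890 in the dark-muzzled cow. For the 8 skeletal muscle markers it was 239040 and 1371600. Such sums depend on the genes and probes of each list, so they do not rank 1 cell type against another.

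**Figure D5:**
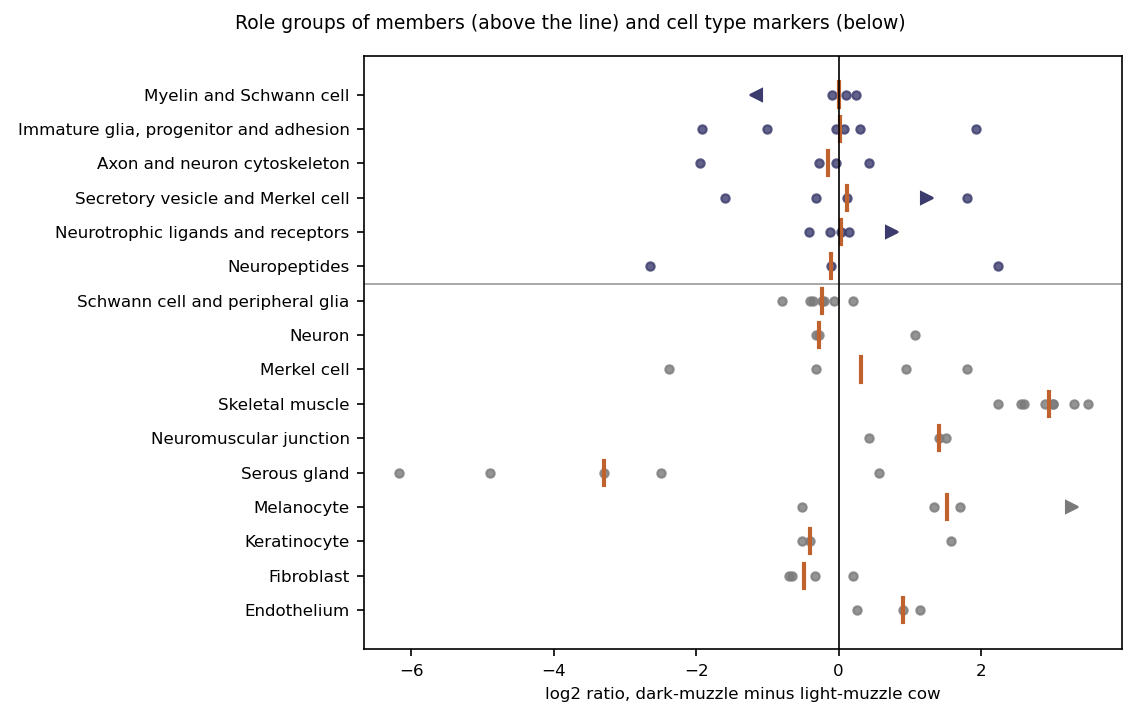
Log2 ratio (dark-muzzled minus light-muzzled cow) of each gene in the role groups (above the line) and in lists of cell type markers (below); points are genes, arrowheads lower bounds and orange bars medians. Role group medians lie between -0.15 and 0.11, while the median is 2.95 for skeletal muscle and -3.29 for serous gland.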

How the data were processed

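Each array was scanned, and the authors deposited the output of Agilent Feature Extraction 10.7.3.1, in which the processed signal is a background-subtracted and detrended intensity. The authors also deposited log2 values made in GeneSpring, used here only as an alternative. Both arrays lay on 1 slide. After removal of control spots and of 13 outlier spots per array, replicate spots were averaged to 43639 probes. Of these 20587 (47.2%) matched a gene through the RefSeq table of ARS-UCD2.0, whose coordinates were not used because the array was designed on another build. A gene took the mean ratio of its probes measured on both arrays, or otherwise its largest lower bound, the bright level against the higher of the dim level and the lowest level well above background. No spot was saturated. Because the authors deposited no replicate, neither tests nor errors between cows were computed. All genes with a ratio were named, and full values given where they were at least 2-fold different, were measured on 1 array or had probes on opposite sides that differed by over 2-fold. The members and lists were chosen with earlier results of these data known. Python 3.11.15, pandas 2.3.3 and limma 3.58.1 in R 4.3.3 were used, and the counting was tested on simulated data. The alternatives were quantile and cyclic loess normalization, a 50th percentile shift, no shift, normexp background correction (offset 50), other filters on dim probes, outlier spots kept, the authors' table, the brightest probe or median of a gene, probes in place of genes and thresholds of 1.5-fold and 3-fold. Normexp on the median pixel signal and the software's significance flag as filter were added after the data had been seen; normexp on the mean pixel signal was planned and not run. Values of a few further genes are not reported here.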

Additional observations from a re-analysis of the deposited data

How the results depend on the processing

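PENK, FABP7, NGFR, PRPH and SST were at least 2-fold different in the reported direction under all 13 alternatives tried for single genes, with ratios that came down under normexp to -1.75 for SST and -1.20 for PRPH, and to -1.33 for NGFR without the filter on dim probes. SYT1 was so under 11 of 13, ATOH1 under 10 of 13, PMP2 under 11 of 12, CHGA under 8 of 12 and GFAP under 8 of 13. These counts are not alike between genes. PENK, PRPH and SST each had 1 probe, measured in both cows. The filters on dim probes, the floor and the choice of probe could therefore not change them. For FABP7, with both probes measured in both cows, the filters and the floor could not either. GFAP changed direction, to 0.33, both without a filter on dim probes and with the significance flag as filter, since its dim probe was then averaged in. With a floor at the detection limit, and with normexp, 2 genes in place of 4 were at least 2-fold higher. Over all genes, normexp left 371 lower in place of 577. Without a filter on dim probes the median log2 ratio was 0.34 for immature glia and adhesion genes, 0.42 for vesicle and Merkel cell genes and 0.086 for neuropeptides. With the significance flag it was 0.34 for the first of these, 0.26 for neuropeptides and 0.032 for axon genes. With only probes measured in both cows it was -0.10 for vesicle and Merkel cell genes. Scaling moved the median of all genes by less than 0.1. CHGA, BDNF and PMP2 were limited by signal over background to 1 cow, and GFAP, SYT1 and ATOH1 changed with the treatment of dim probes.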

Other observations

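Acetylcholine receptor genes of the neuromuscular junction, where motor axons meet muscle, were read beside the nerve genes. CHRND, the delta subunit, was 2.67-fold higher in the dark-muzzled cow, with probes at 1.07 and 1.76 on the log2 scale. CHRNE, the epsilon subunit of mature junctions, had a log2 ratio of 0.43. CHRNA1 had a mean of 1.502 from probes at -0.22 and 3.23, so its probes did not share a direction. Of the endothelial markers, PECAM1 was 2.21-fold higher in the dark-muzzled cow, and CDH5 and KDR had ratios of 0.90 and 0.26. The keratinocyte markers KRT5 and KRT14 had ratios of -0.52 and -0.41, and KRT10, of differentiating layers, one of 1.57. Fibroblast markers lay between -0.69 and 0.21.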
